A study of Rattus norvegicus with 36 samples.

Results

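A panel of 38 skeletal muscle genes was followed through mammary gland samples of 2 rat strains. The genes were chosen by name as genes of skeletal muscle, from the contractile filaments, the Z disc, calcium handling and energy supply, with earlier results of these data known, and every probe set whose annotated symbol was one of the 38 was taken. This gave 60 probe sets of 37 genes among the 31099 probe sets of the array, whose single-symbol probe sets cover 14217 genes. The symbol Mylpf matched none, because the annotation lists that fast myosin light chain under its current symbol Myl11, whose values are given apart. Rats of the inbred strains Cop and F344, known as resistant and susceptible to mammary carcinogenesis, were 55 days old when they received saline vehicle (the controls) or N-nitrosomethylurea (NMU), an alkylating carcinogen. Glands were taken at 6 h, 1 d or 30 d after that. Each of the 12 combinations of strain, treatment and time has 3 biological replicates, 36 arrays in all, and neither the NMU dose nor how the glands were dissected is given in the sources used here. The values are the authors' expression values on a log2 scale, so that a difference of 1 is a doubling of signal.

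Skeletal muscle fibres shorten when myosin heads of the thick filament pull on the actin of the thin filament, a step that troponin and tropomyosin release when calcium rises. Calcium leaves the sarcoplasmic reticulum through the ryanodine receptor, is pumped back by SERCA, and is buffered there by calsequestrin. Fast fibres and slow fibres use different genes for many of these parts, and fast fibres run largely on creatine phosphate and glycogen. Mammary glands hold no skeletal muscle of their own. Their contractile cells are myoepithelial and vascular smooth muscle cells, which use other actin and myosin genes, and the rat glands lie under the skin against thin sheets of striated muscle.

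The probe sets of the panel were among the least repeatable on the array. Over the 36 arrays, the value of Acta1, the actin of skeletal muscle, ran from 4.29 to 13.77. Ckm, the muscle creatine kinase, ran from 4.84 to 13.59, and Myh4, the myosin heavy chain of the fastest fibres, from 3.49 to 12.19. Each of these ranges covers most of the scale of the array. Of the 54 panel probe sets that passed the filter for dim probe sets, 26 (48.1%) had a standard deviation above 1 within groups of 3, against 89 of all 20748 tested probe sets (0.429%). The median standard deviation within groups was 0.949 for the panel and 0.207 for all tested probe sets. Of the 25 tested probe sets that varied most within groups, 13 belonged to the panel. In whole glands, fewer muscle fibres in a sample and less RNA per fibre cannot be told apart.

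**Figure D1:**
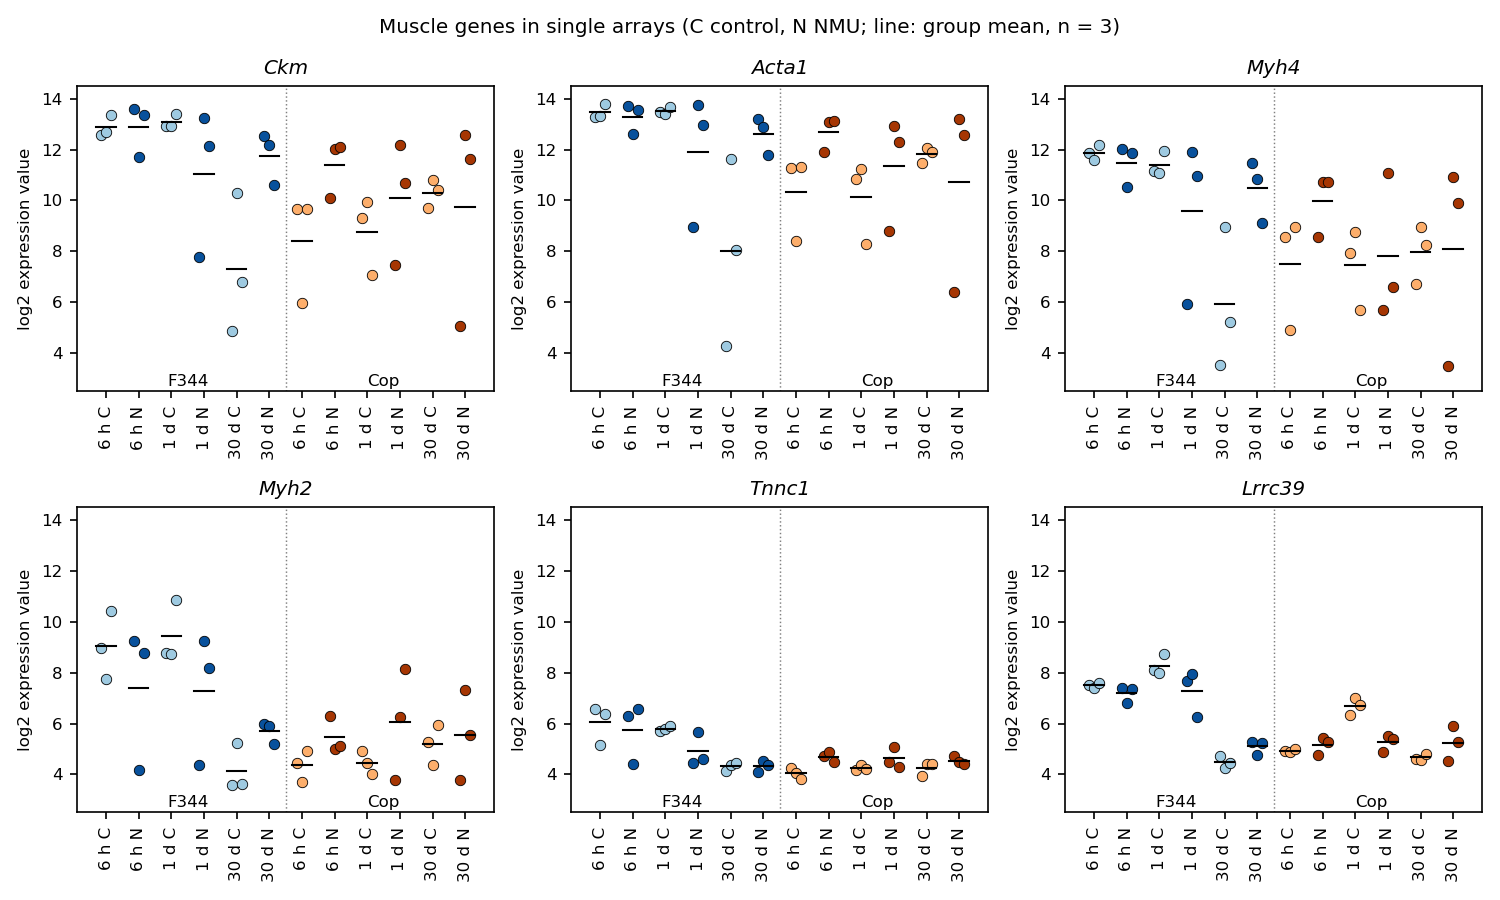
Log2 expression values (y axis) of 6 panel genes in every array, by strain, time and treatment (x axis, C control and N NMU), with a line at each group mean (n = 3). Ckm, Acta1 and Myh4 spread over several log2 units within groups such as the F344 controls at 30 d, while the SD of Lrrc39 within the 6 control groups lay between 0.06 and 0.40 and its replicates spread most in F344 NMU at 1 d, from 6.26 to 7.97.

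The mean deviation of the 37 genes from their own means over all arrays, called the muscle score here, gave each array a single value. It was highest in F344 control replicate 3 at 1 d (2.33) and F344 control replicate 3 at 6 h (2.32). It was lowest in F344 control replicate 1 at 30 d (−2.64), Cop NMU replicate 1 at 30 d (−2.39) and Cop control replicate 2 at 6 h (−2.24). The F344 controls had scores of 1.39, 1.26 and 2.32 at 6 h, of 1.65, 1.58 and 2.33 at 1 d, and of −2.64, −0.63 and −2.08 at 30 d. In the Cop controls the scores were −0.90, −2.24 and −0.90 at 6 h, −0.98, −0.67 and −1.90 at 1 d, and −0.90, −0.44 and −0.44 at 30 d. All 6 F344 controls of the first day thus lay above every other control array. The F344 NMU glands had 2.22, 0.15 and 1.93 at 6 h, −1.65, 1.98 and 0.82 at 1 d, and 0.86, 0.54 and −0.47 at 30 d. Cop NMU glands had −0.53, 0.43 and 0.49 at 6 h, −1.82, 0.73 and −0.26 at 1 d, and −2.39, 0.94 and 0.22 at 30 d. Replicates of one NMU group therefore differed by up to several log2 units, and the standard deviation within groups, pooled over the 12 groups, was 1.04. Over all probe sets, no 2 replicates were nearer to each other than the first and second F344 controls of 1 d (root mean square log2 difference 0.163, next pair 0.232).

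**Figure D2:**
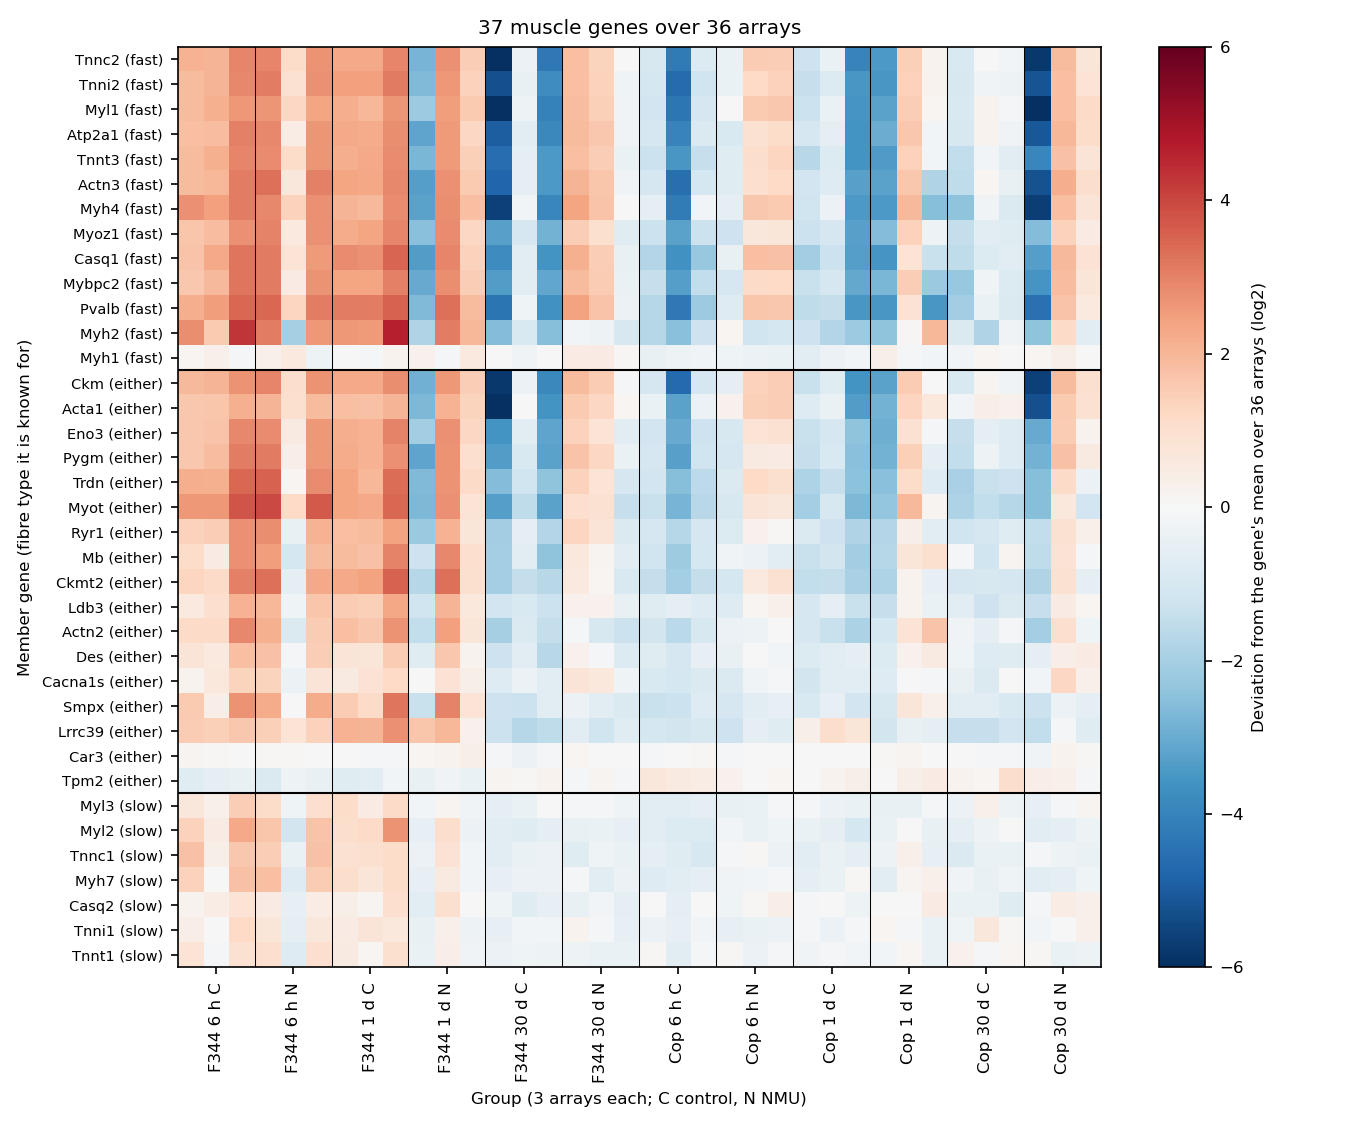
Deviation of each of 37 panel genes (rows, by the fibre type they are known for) from its own mean over 36 arrays (columns, 3 per group; colour scale in log2 units). Fast fibre genes form columns of one colour, deep blue in F344 control replicate 1 at 30 d and Cop NMU replicate 1 at 30 d, while the slow fibre genes below change little outside the F344 arrays of 6 h and 1 d.

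Most fast fibre and general muscle genes moved together from array to array. Of the 36 other panel genes, 15 had a Pearson correlation above 0.9 with Ckm over the 36 arrays and 25 one above 0.7. These correlations describe arrays that share their groups and their RNA, and no p is given for them. Among the proteins of the thin filament, the fast troponins Tnnc2, Tnni2 and Tnnt3, which bind calcium, inhibit and anchor to tropomyosin, had r = 0.998, 0.997 and 0.986 (Spearman's rho 0.993, 0.997 and 0.996). After group means were subtracted, r was still 0.997, 0.997 and 0.984. Acta1 had r = 0.973 (rho 0.987), and the thick filament genes Myl1, a fast light chain, and Myh4 had r = 0.995 (rho 0.991) and 0.973 (rho 0.962). In the calcium group, the fast SERCA pump Atp2a1 had r = 0.994 (rho 0.992), the fast calsequestrin Casq1 0.952 (rho 0.973) and the calcium buffer Pvalb, parvalbumin, 0.946 (rho 0.968). At the Z disc, where thin filaments are anchored, the fast alpha-actinin Actn3 had r = 0.985 (rho 0.982). The ranges of the 13 fast genes had a median of 8.01 log2 units.

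The slow fibre genes followed Ckm less closely. Their ranges had a median of 2.16 log2 units over 7 genes, and their median r with Ckm was 0.598, against 0.973 for the fast genes. By rank they were closer, with rho from 0.483 for Tnnt1 to 0.791 for Myl3. The slow troponin C gene Tnnc1 ran from 3.83 to 6.58 and lay above the 40th percentile of its array on 10 of 36 arrays. The brighter probe set of Myh7, the slow myosin heavy chain, did so on 5 arrays, with a highest value of 5.76 in F344 NMU replicate 1 at 6 h. The only probe set of Tnnt1, the slow troponin T, did so on 2 arrays and was not tested. The slow light chain Myl2 reached 7.46 in F344 control replicate 3 at 1 d, from a lowest value of 3.66. A dim probe set has a short range on a log2 scale whatever its gene does, so these ranges are no measure of how far slow fibre genes changed. Values near the floor can lower r as well, so the lower r is no measure of how closely these genes followed.

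The thick filament genes Myh4 and Myh2, which mark the fastest and the more oxidative fast fibres, did not keep one ratio. Myh2 ran from 3.57 to 10.84 with r = 0.784 (rho 0.889) with Ckm. Cop NMU replicate 3 at 1 d had Ckm at 10.68 and Myh2 at 8.15, but Myh4 at 6.59 and Pvalb at 5.25. Against the straight line on Ckm over all arrays, its Myh4 lay 2.57 below, its Pvalb 3.53 below and its Myh2 1.96 above. F344 NMU replicate 3 at 30 d had a like Ckm of 10.59, with Myh4 at 9.11, Pvalb at 8.42 and Myh2 at 5.19. F344 NMU replicate 2 at 6 h went the other way, with Ckm at 11.70, Myh4 at 10.51 and Myh2 at 4.17. Myh2 lay above the 40th percentile on only 23 arrays, and this value is near its floor, so it gives no ratio. The arrays named here were chosen after their values were seen.

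**Figure D3:**
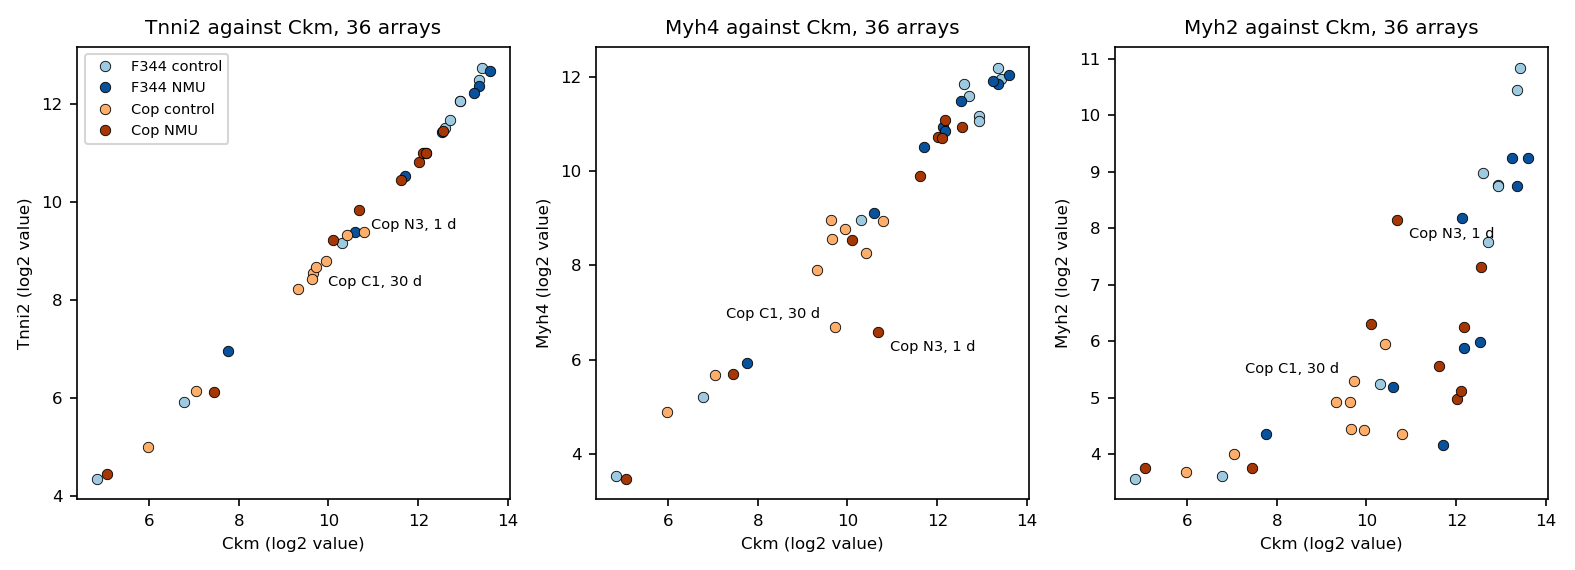
Log2 values of Tnni2, Myh4 and Myh2 (y axes) against Ckm (x axis) in 36 arrays, coloured by strain and treatment. Tnni2 lies on one line, while Myh4 in Cop NMU replicate 3 at 1 d (Cop N3) falls 2.57 below the line and Myh2 lies 1.96 above it.

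A few members did not follow the panel. Car3, carbonic anhydrase III, which is abundant in slow muscle and also in fat cells, stayed between 13.41 and 14.10 on its brighter probe set and between 12.47 and 13.60 on the other. The highest value of the data was 14.3, and whether signal so near the top was compressed was not tested. Myh1, a fast myosin heavy chain, has 5 probe sets in the table, with r between −0.20 and 0.20 with Ckm and ranges of 1.29 to 2.20. In F344 control replicate 1 at 30 d, with Myh4 at 3.54, the Myh1 probe set of highest mean stood at 10.15. Whether these probe sets measure the myosin of muscle fibres was not tested, so Myh1 counts below are those of the annotation. Tpm2, a tropomyosin of muscle that smooth muscle and myoepithelium also make, had 2 probe sets that disagreed. Its brighter probe set ran from 9.66 to 11.55 with r = −0.531 (rho −0.667), and the other from 4.48 to 11.47 with r = 0.960 (rho 0.987). Gene-wise values of Tpm2 below are those of the brighter probe set.

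The promoters of 4 members are shown, those of 3 genes that moved closely together and that of Lrrc39, which had a weaker correlation with Ckm (r = 0.533, rho 0.658). They are the 250 bases before the RefSeq start, 5′ to 3′, on GRCr8, with capitals for CAGCTG (an E-box of the kind bound by the MyoD family), for a MEF2 site and for a CArG box, the site of serum response factor. Ckm lies at chr1:88189211-88189460 on the plus strand, Acta1 at chr19:68784195-68784444 on the minus strand, Myh4 at chr10:52421898-52422147 on the plus strand and Lrrc39 at chr2:207200789-207201038 on the plus strand.
Ckm: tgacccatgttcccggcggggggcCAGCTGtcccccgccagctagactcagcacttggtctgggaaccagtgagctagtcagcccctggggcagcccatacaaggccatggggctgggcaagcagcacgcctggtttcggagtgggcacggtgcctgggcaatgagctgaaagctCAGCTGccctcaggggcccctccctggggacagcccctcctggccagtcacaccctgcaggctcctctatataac
Acta1: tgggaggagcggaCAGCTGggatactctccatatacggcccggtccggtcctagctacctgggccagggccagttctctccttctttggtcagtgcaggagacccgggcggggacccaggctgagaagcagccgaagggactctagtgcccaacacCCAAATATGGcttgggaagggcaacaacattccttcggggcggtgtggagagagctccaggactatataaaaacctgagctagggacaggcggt
Myh4: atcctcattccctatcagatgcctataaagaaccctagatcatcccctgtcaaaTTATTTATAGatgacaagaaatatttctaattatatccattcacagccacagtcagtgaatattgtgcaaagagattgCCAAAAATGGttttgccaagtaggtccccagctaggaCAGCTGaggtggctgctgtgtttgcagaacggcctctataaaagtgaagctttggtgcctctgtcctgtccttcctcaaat
Lrrc39: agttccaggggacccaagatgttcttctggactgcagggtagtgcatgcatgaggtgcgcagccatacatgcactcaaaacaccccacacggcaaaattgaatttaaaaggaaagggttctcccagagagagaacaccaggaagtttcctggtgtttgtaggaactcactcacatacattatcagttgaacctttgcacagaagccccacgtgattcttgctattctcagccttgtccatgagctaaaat
Promoters were matched by symbol for 32 of the 37 genes, 33 promoters in all. Searched on both strands, CAGCTG occurred in 10 of them (30.3%), against 11.97% of 33469 rat promoters of the same length, a MEF2 site in 6 (18.2% against 2.96%) and a CArG box in 4 (12.1% against 1.497%). CAGCTG reads the same on both strands, and the motifs do not overlap in the promoters shown. Of 2 general motifs, CCAAT occurred in 11 promoters (33.3% against 34.0%) and the TATA box letters TATAAA in 9 (27.3% against 12.9%). None of the first 3 motifs is in these 250 bases of Lrrc39, nor in those of Tnni2, which had r = 0.997 with Ckm. A match is a description of letters, not a binding site.

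Control glands of the first day, 6 h and 1 d joined, held less muscle RNA in Cop than in F344. This comparison, the one of the strains at 30 d and those of 30 d with the first day within each strain were chosen after the data were seen, and they share control arrays. Ckm had its lowest, median and highest values at 12.59, 12.93 and 13.41 in the 6 F344 controls and at 5.97, 9.48 and 9.94 in the 6 Cop controls. The ranges do not touch, and the fitted difference, Cop minus F344, was −4.39 (SE 1.16, limma adjusted p = 0.00569). Acta1 lay at 13.28, 13.44 and 13.77 in F344 and at 8.28, 11.04 and 11.32 in Cop (−3.26, adjusted p = 0.0302). Pvalb had the largest fitted difference of the 36 tested genes, at 10.93, 11.82 and 12.29 against 4.45, 6.79 and 7.32 (−5.41, SE 1.07, adjusted p = 0.000414). For Acta1 the call was lost when 1 of 4 arrays was left out, F344 control replicate 3 at 6 h, F344 control replicate 1 at 1 d, Cop control replicate 2 at 6 h or Cop control replicate 3 at 1 d, and its difference without the one that weakened it most was −2.78 (adjusted p = 0.0886).

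A member that passed the filter mainly through the early F344 arrays had to be lower in Cop here, so the counts below describe the tested members and support nothing. Over all tested panel probe sets, 47 of 54 were lower in the Cop controls (13.2% of all tested probe sets were) and 1 was higher, the brighter one of Tpm2 (0.92, adjusted p = 3.2e-06). Together 48 were called, against 29.9% of all tested. The median difference of the 36 tested genes was −3.60, against 0.05 over 11509 genes. Every array of one strain lay beyond every array of the other for 46 of the 54, 45 lower and 1 higher in Cop, against 14.4% of all tested. All 8 thick filament genes tested were lower, among them Myh4 (−4.17), Myh2 (−4.86) and, on 1 of its 5 probe sets, Myh1 (−0.43). Of 7 thin filament genes 6 were lower, of 8 Z disc and cytoskeletal genes 8, of 7 calcium genes 7 and of 6 energy genes 5, with Car3 the exception (−0.02, adjusted p = 0.816). Mb, myoglobin, the oxygen store of red fibres, was lower by −3.30.

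In the calcium group, Casq1 had its lowest, median and highest values at 9.38, 10.44 and 11.13 in early F344 controls and at 4.01, 5.46 and 6.38 in early Cop controls. Atp2a1 lay at 11.71, 12.17 and 12.93 against 5.90, 8.92 and 9.39. The release channel Ryr1 lay at 7.66, 8.12 and 9.0 against 4.45, 5.15 and 5.43. None of the 3 overlapped between the strains, and Trdn, triadin of the calcium release complex (−4.41), Cacna1s, the voltage sensor (−1.68), and Casq2, the slow calsequestrin (−0.65), were lower too. The call of Casq2 was lost without F344 control replicate 3 at 6 h, Cop control replicate 2 at 6 h or F344 control replicate 3 at 1 d. Among energy genes, Eno3, the muscle enolase, stood at 11.21, 11.73 and 12.58 against 6.57, 8.32 and 8.58, and Pygm, which breaks down glycogen, at 10.39, 10.91 and 11.82 against 5.53, 7.47 and 7.85. Neither overlapped, and the mitochondrial creatine kinase Ckmt2 differed by −3.91.

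At the Z disc, Actn3 stood at 11.48, 11.91 and 12.64 in early F344 controls and 5.03, 8.46 and 8.80 in early Cop controls. Des, desmin of the intermediate filaments, which smooth muscle also makes, stood at 9.23, 9.42 and 10.48 against 7.67, 7.96 and 8.17. Its gap was smaller but again without overlap. Actn2, the alpha-actinin of all fibres (−3.20), Myoz1, a calcineurin-binding Z disc protein of fast fibres (−4.18), Ldb3 (−2.33) and Smpx (−2.74) were lower as well. Of the thin filament, Tnnc2 stood at 12.001, 12.24 and 12.89 against 5.74, 8.87 and 9.56, and Tnni2 and Tnnt3 differed by −4.57 and −4.39. Of the thick filament, Myl1 differed by −4.19 and Mybpc2, the fast myosin binding protein, by −4.35. Of the slow set, Myl3 differed by −1.33 and Tnni1, the slow troponin I, by −0.86. The tested probe sets of Myh7 and Myl2 passed the filter only through F344 arrays of 6 h and 1 d. That of Tnnc1 passed through such arrays and 1 Cop NMU array, and that of Smpx through such arrays and Cop NMU arrays of 1 d. The differences of Myh7 (−1.50), Myl2 (−2.22), Tnnc1 (−1.77) and Smpx (−2.74) were fixed in direction by the filter and are given as a description. The dimmer tested probe sets of Tnnt3, Trdn and Tnni1 lay above the 40th percentile on 4, 8 and 8 arrays. They too passed only through F344 arrays of 6 h and 1 d, so the same holds for their part in the counts.

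At 30 d the median difference between the strains had the other sign. Ckm was 4.84, 10.30 and 6.79 in the F344 controls and 9.71, 10.79 and 10.42 in the Cop controls, and the ranges overlap. The difference was 2.996 (SE 1.65, adjusted p = 0.47), and for Acta1 it was 3.82 (adjusted p = 0.281). None of the 54 probe sets was called by limma (2.83% of all tested were), 1 had an unadjusted p under 0.05, and the median gene difference was 1.03. Without F344 control replicate 2 at 30 d, the one with Ckm at 10.30, 1 was called. Over the controls of all times, 35 of 54 were called between the strains, 34 lower in Cop and 1 higher, against 26.1% of all tested (12.9% lower), and for 0 of 54 did every array of one strain lie beyond the other (1.79% of all tested). That joint count mixes times with opposite medians, and Ckm (−1.93, adjusted p = 0.145) and Acta1 (−0.90, adjusted p = 0.527) were not among the calls.

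In F344 control glands, the muscle genes fell between the first day and 30 d. Acta1 fell from 13.28, 13.44 and 13.77 (lowest, median and highest of 6) to 4.29, 8.05 and 11.63, with no overlap (−5.50, SE 1.38, adjusted p = 0.00382). Myot, a Z disc protein, went from 8.89, 9.24 and 10.38 to 3.32, 3.41 and 5.12 (−5.52, adjusted p = 0.000133). Casq1 reached 3.86, 4.05 and 6.95 at 30 d, Tnnc2 3.995, 5.68 and 9.63, Eno3 6.02, 6.43 and 8.94 and Mb 3.98, 4.35 and 5.74 (lowest, median and highest of 3), each below its early range. Of 54 panel probe sets, 48 were lower at 30 d (13.3% of all tested) and 1 was higher, Tpm2 by 0.70, 49 in all against 27.1%. Arrays were fully separated for 46 lower and 2 higher probe sets (25.3% of all tested). The median over 36 genes was −4.31. All 8 Z disc and cytoskeletal, 7 calcium and 6 energy genes fell (Car3 by −0.20). Of the thick filament, 7 of 8 genes fell (all but Myh1, −0.15), and of the thin filament 6 of 7. The differences of the 6 slow genes tested ran from −0.85 for Tnni1 to −2.15 for Myl2. The same limit of the filter holds for Myh7, Myl2, Tnnc1 and Smpx, the last a Z disc and cytoskeletal gene. It also holds for the dimmer tested probe sets of Tnnt3, Trdn and Tnni1, so the counts are a description. Without F344 control replicate 1 at 30 d, the array of lowest score, the calls of Acta1 and Myh4 were lost, with differences of −3.65 and −4.55, as were those of Actn3, of the brighter probe set of Tnni1 and of 1 probe set each of Casq2 and Ldb3. The call of the brighter Car3 probe set was lost in 4 of 9 fits, those without F344 control replicates 1 or 2 at 6 h, 1 at 1 d or 2 at 30 d, while the count over leave-one-out fits stayed between 43 and 49.

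In Cop control glands the median gene difference over the same span was 0.56. Ckm was 9.65, 5.97 and 9.64 at 6 h, 9.31, 9.94 and 7.06 at 1 d, and 9.71, 10.79 and 10.42 at 30 d, a difference of 1.71 (SE 1.42, adjusted p = 0.486). Of 54 probe sets, 4 were called (7.5% of all tested, 1.84% higher and 5.67% lower), 3 of Myh1 higher by 0.50 to 0.89 and Lrrc39 lower by −1.14. The second Lrrc39 probe set was not called (−0.39, adjusted p = 0.274), and Lrrc39 was highest in the Cop controls of 1 d. Arrays were fully separated for 7 higher and 1 lower probe sets (9.68% of all tested). None was called without Cop control replicate 2 at 30 d, and 1 without Cop control replicate 3 at 30 d. The change from the first day to 30 d differed between the strains, Cop minus F344, for 37 of 54 probe sets, all higher, against 5.08% of all tested (2.4% higher), with a median of 4.80. Ckm had 7.39 (SE 2.02, adjusted p = 0.0337) and Mb 4.63 (adjusted p = 0.0205). That count rests on few arrays and shares the limit of the filter given for the early strain difference. It was 3 without F344 control replicate 1 at 30 d and 7 without replicate 3, 14, 16 and 19 without Cop control replicates 1, 2 and 3 at 30 d, 18 without F344 control replicate 3 at 6 h, 19 without Cop control replicate 2 at 6 h and 23 without Cop control replicate 3 at 1 d. With the controls of both strains joined, 25 probe sets were called between 30 d and the first day, 21 lower and 4 higher (30.1% of all tested, 16.4% lower). Arrays were fully separated for 2 of the 54 (2.81% of all tested). The 25 calls became 42 when the 18 control arrays were fitted alone and 16 without F344 control replicate 3 at 30 d.

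**Figure D4:**
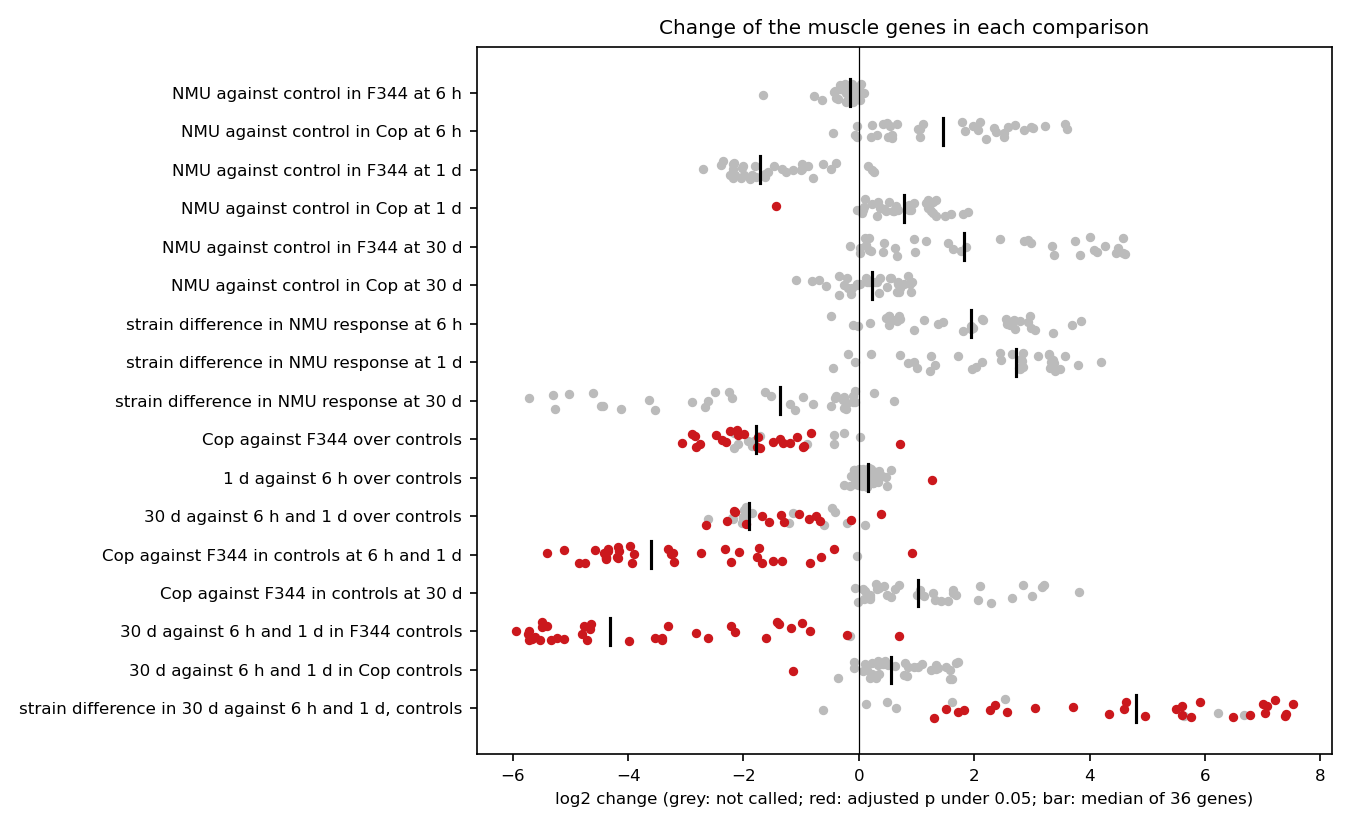
Log2 change (x axis) of the 36 tested panel genes, 1 probe set each, in the 17 comparisons (rows); red points passed an adjusted p of 0.05 and bars are medians. Red points gather in the control comparisons of strain and of 30 d in F344, and the rows on NMU hold a single red point, Lrrc39 in Cop at 1 d.

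Of all comparisons of NMU with saline, a single panel gene passed the test in one of them. At 6 h in F344, Ckm was 12.59, 12.70 and 13.35 in controls and 13.59, 11.70 and 13.35 after NMU, a difference of 0.00 (SE 1.65). No panel probe set was called by limma, 3 had an unadjusted p under 0.05, and 0.622% of all tested were called. The share of all tested probe sets with an unadjusted p under 0.05 was not taken. Counts of that kind are a description throughout. In Cop at 6 h, Ckm was 9.65, 5.97 and 9.64 in controls and 10.10, 12.02 and 12.11 after NMU. Every NMU array lay above every control array, yet the difference of 2.99 (SE 1.65) had an adjusted p of 0.349. Such separation held for 36 of the 54 probe sets, 35 higher and 1 lower, against 29.7% of all tested. None was called (6.57% of all tested), 3 had an unadjusted p under 0.05, and the median gene difference was 1.45. With the 6 arrays fitted alone, 7 were called, 6 higher and 1 lower.

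At 1 d in F344, Ckm was 12.92, 12.94 and 13.41 in controls and 7.76, 13.25 and 12.12 after NMU (−2.05, adjusted p = 0.819). One NMU gland, replicate 1, lay far below the rest, and without it the median gene difference went from −1.71 to −0.46. No probe set was called (0.983% of all tested), and 13 had an unadjusted p under 0.05. The lowest adjusted p was that of Myl3, a slow light chain, at 0.0914. Without F344 NMU replicate 2, 2 were called. In Cop at 1 d, Ckm was 9.31, 9.94 and 7.06 in controls and 7.45, 12.17 and 10.68 after NMU (1.33, SE 1.65, adjusted p = 0.907), and 1 panel probe set was called (0.762% of all tested), one of Lrrc39, which was lower (0.352% were lower).

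After 30 d in F344, Ckm was 4.84, 10.30 and 6.79 in controls and 12.53, 12.18 and 10.59 after NMU, without overlap. The difference of 4.45 (SE 1.65) had an unadjusted p of 0.0122 and an adjusted p of 0.134. Acta1 differed by 4.62 (adjusted p = 0.107) and Myh4 by 4.57 (adjusted p = 0.147). For 35 of 54 probe sets all NMU arrays lay above all controls, against 21.5% of all tested in either direction, and none was called (3.29% of all tested). An unadjusted p under 0.05 was found for 32, with no share over all tested probe sets to set beside it. Without F344 control replicate 2 or NMU replicate 3 at 30 d, 4 and 3 were called, all higher. In Cop at 30 d, Ckm was 9.71, 10.79 and 10.42 in controls and 5.06, 12.55 and 11.62 after NMU, so that the NMU arrays lay on both sides of the controls (−0.56, SE 1.65, adjusted p = 0.879). None was called (9.9% of all tested), 6 had an unadjusted p under 0.05, and 3 were called without Cop NMU replicate 1, the array with Ckm at 5.06.

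No panel gene passed the test for a difference between the strains in the NMU response. The difference, Cop response minus F344 response, had a median of 1.95 at 6 h, 2.72 at 1 d and −1.36 at 30 d. None of 54 was called by limma at any time, against 0.877%, 0.207% and 0% of all tested, and 1, 13 and 6 had an unadjusted p under 0.05. At 1 d the median was 1.27 without F344 NMU replicate 1.

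Lrrc39, a leucine-rich repeat protein of the muscle M band, varied mostly between groups, with r = 0.324 with Ckm once group means were subtracted. Its F344 controls stood at 7.505, 7.41 and 7.61 at 6 h and 8.09, 8.01 and 8.73 at 1 d, and at 4.72, 4.25 and 4.46 at 30 d. The Cop controls stood at 4.92, 4.89 and 5.0 at 6 h, 6.35, 7.02 and 6.73 at 1 d, and 4.62, 4.58 and 4.82 at 30 d. The F344 NMU group at 1 d had 7.67, 7.97 and 6.26, and the Cop NMU group at 30 d 4.53, 5.90 and 5.26, the 2 groups of widest spread. Variation within groups took up 6.87% of its variance, against a median of 37.4% for the tested panel probe sets and 39.7% for all tested. F344 NMU replicate 1 at 1 d, with the low muscle score of −1.65, still had Lrrc39 at 7.67.

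In Cop at 1 d, Lrrc39 was lower after NMU, at 4.89, 5.53 and 5.39 (−1.43, SE 0.321, adjusted p = 0.023). The call did not hold with replicate numbers as a block (adjusted p = 0.066), nor without any 1 of the 6 arrays, where the adjusted p went up to 0.166. Its second probe set differed by −0.58 (adjusted p = 0.371). Between the times in controls, Lrrc39 was the only panel gene higher at 1 d than at 6 h (1.27, adjusted p = 0.0141), 1 call of 54 against 0.183% of all tested (0.101% higher). That call was lost without F344 control replicate 2 at 6 h, Cop control replicate 2 at 6 h or Cop control replicate 2 at 1 d. The second probe set was not called between these times (0.48, adjusted p = 0.261). In early controls, Lrrc39 was lower in Cop by −2.07 (adjusted p = 7.28e-08). In F344 it was lower at 30 d by −3.42 (adjusted p = 4.2e-10), with the second probe set at −2.28 (adjusted p = 4.43e-09). That second probe set passed the filter only through F344 arrays of 6 h and 1 d and Cop controls of 1 d. Its fall in F344 was thus fixed in direction by the filter and is given as a description.

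Other genes of muscle, from lists that hold no panel member, moved with the panel. Of 38 measured sarcomere and Z disc genes, 33 were lower and 2 higher (Tpm3 by 0.51 and Pdlim5 by 0.45) in early Cop controls, with 29.9% of all probe sets called. Among the lower ones were Ttn, the giant spring of the sarcomere (−4.26, adjusted p = 0.000297), and Neb, nebulin (−4.22, adjusted p = 0.00016). For excitation and calcium genes it was 19 of 24, including Srl, sarcalumenin (−3.23). For muscle energy genes it was 22 of 25, including Pgam2, the muscle phosphoglycerate mutase (−4.79, adjusted p = 0.000393). Of 12 regulators 7 were lower, with the muscle transcription factors Myf6 (−2.84, adjusted p = 0.000318), Mef2c (−1.70) and Myod1 (−1.22). At 30 d against the first day in F344 controls, 32 of 38, 16 of 24, 20 of 25 and 7 of 12 were lower, against 13.3% of all tested. The lists hold only probe sets that passed the same filter, so the limit given for the panel counts holds for these counts too. Myl11, the gene listed as Mylpf, was 12.42, 12.60 and 13.24 in F344 controls at 6 h and 9.13, 5.11 and 9.10 in Cop controls at 6 h, with no overlap.

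After group means were subtracted, the median r of single genes with the muscle score was 0.818 for the sarcomere list, 0.801 for the excitation list, 0.797 for the energy list and 0.559 for the regulators. Of 11473 genes outside the panel, the 6 most like it by this measure over 36 arrays were Cox6a2 (r = 0.986), Cmya5 (0.986), Ttn (0.985), Hjv (0.984), Pgam2 (0.983) and Cox8b (0.979). Above 0.9 stood 34 genes, 22 of them in the muscle lists. At the other end stood Pcbp1 (−0.722), Slc2a1 (−0.658), Slc34a2 (−0.652), Hnrnpm (−0.648), Rcc2 (−0.646) and Hspa4l (−0.643). The score does not include these genes, but all values come from the same arrays.

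**Figure D5:**
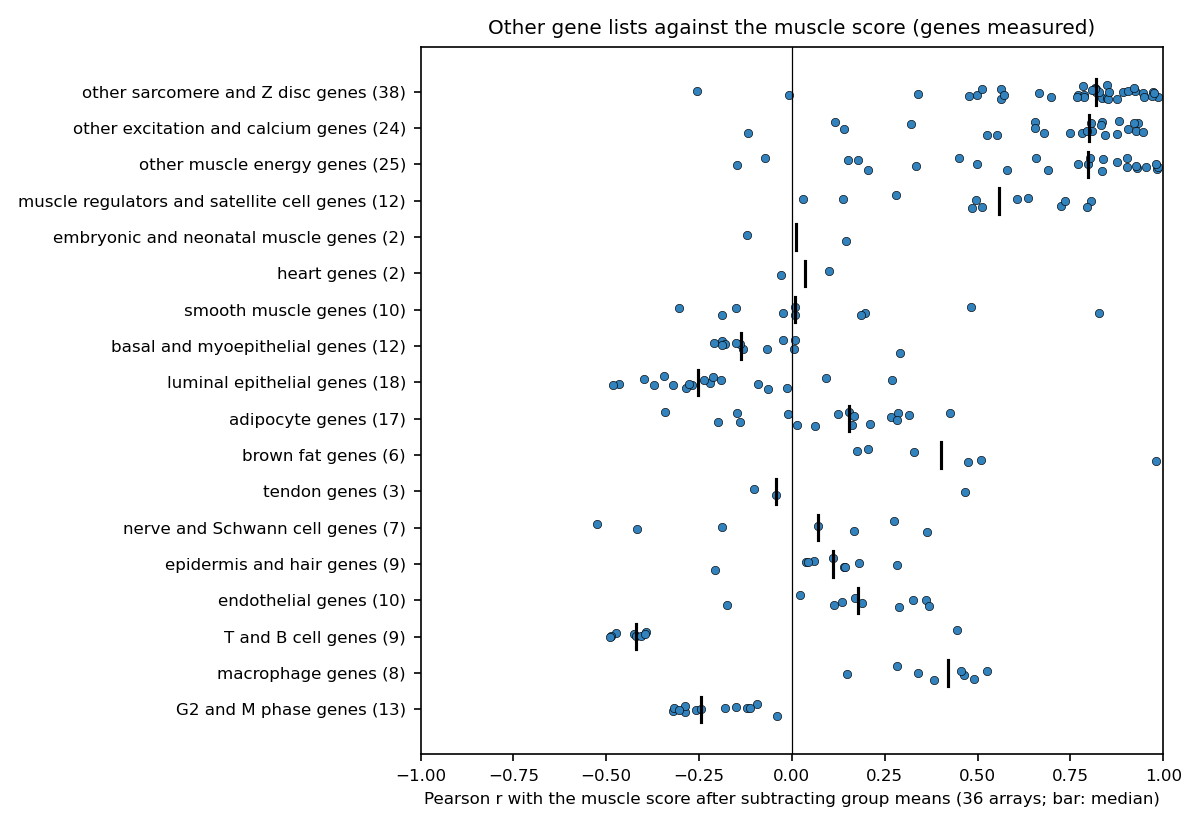
Pearson r of single genes with the muscle score over 36 arrays after subtracting group means (x axis), for 18 gene lists (rows, with the number of genes measured outside the panel; bars are medians). The 4 lists of other muscle genes have medians of 0.559 to 0.818, while smooth muscle, basal and luminal lists lie at 0.01, −0.14 and −0.25.

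Markers of other muscle types had a median r near 0 with the muscle score within groups. It was 0.01 over 10 smooth muscle genes, of which Synpo2, also a Z disc protein of striated muscle, had 0.825. It was 0.04 over the 2 heart genes measured, Mybpc3 and Nkx2-5, of which neither was called between early control strains.

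Other cell types differed between the same groups of controls. In early Cop controls, 8 of 18 luminal epithelial genes were higher and none lower (16.7% of all tested probe sets were higher and 13.2% lower), 9 of 12 basal genes were higher and 1 lower (Oxtr, −1.24), 7 of 10 smooth muscle genes were higher and 1 lower (Synpo2, −1.30), 11 of 13 G2 and M phase genes were higher, and 13 of 17 adipocyte genes were lower and 1 higher (Pck1, 1.58). Acta2, Myh11, Cnn1 and Mylk are in both the basal and the smooth muscle list. The luminal list score lay between −0.92 and −0.29 in the 6 F344 and between −0.06 and 0.63 in the 6 Cop arrays, the adipocyte score between 0.14 and 0.39 and between −0.31 and 0.21. At 30 d against the first day in F344 controls, 16 of 18 luminal, 9 of 12 basal and 12 of 13 G2 and M phase genes were higher and 10 of 17 adipocyte genes lower, with Pck1 again higher (1.77), against 13.8% of all tested higher and 13.3% lower, and the luminal score reached 0.72 to 1.21. Of 6 brown fat genes, 5 were lower in early Cop controls, among them Cox8b (−3.75), Cpt1b (−1.79) and Cidea (−1.10), and 5 were lower at 30 d in F344 controls. Their list score lay between 0.57 and 1.04 in early F344 controls, between −0.59 and −0.19 in early Cop controls and between −0.95 and −0.64 in F344 controls at 30 d. Cox8b and Cox7a1 are also in the muscle energy list, and striated muscle also makes Cpt1b. The part of these cell types in the panel's differences was not tested. The brown fat list score had r = 0.935 with the muscle score within groups, with a median gene r of 0.40 and Cox8b at 0.979. Within groups, the median r with the muscle score was −0.25 for luminal, −0.14 for basal, 0.15 for adipocyte, −0.42 for T and B cell, 0.42 for macrophage and −0.24 for G2 and M phase genes.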

How the data were processed

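Per the labels' protocols, RNA was prepared with a Qiagen RNeasy Maxi kit and labelled with biotin as cRNA, starting from 1 ug, for Affymetrix rat arrays. The submitters' processing notes name GCOS. The method of summarizing and normalizing the probes is not stated in those texts. Values came as the authors' log2 expression per probe set, from 2.46 to 14.3, with array medians within 0.110 of each other, and were used as deposited. Arrays have no read depth, and their number limits the precision. Probe sets were named by the platform annotation: 20826 carry 1 symbol, 436 several and 9837 none. No genome build is named in the files. The promoters are RefSeq's on GRCr8.

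Probe sets above the 40th percentile of their array on at least 3 arrays were tested (20748, with 10294 dim and 57 control probe sets left out). Of the panel, 54 of 60 passed, covering 36 genes. The 6 others are the one of Tnnt1, 2 of Trdn and 1 each of Myh7, Myl2 and Ldb3. The brightest probe set by mean stood for its gene. In limma 3.58.1 (R 4.3.3, trend and robust options), 12 group means were fitted over the 36 arrays, with two-sided moderated tests and Benjamini-Hochberg adjustment over all tested probe sets in each comparison, called under 0.05, after a test on simulated data. There are 12 planned comparisons and 5 added after the data were seen (control strains and times taken apart). The labels name the replicates biological and say no more, so p-values measure the spread between these arrays, which may be technical. The members and the 18 lists were chosen with earlier results of these data known. Named are all members, the 6 genes most and least like the muscle score, the 3 genes of highest mean in each list, and called list genes.

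Replicate numbers are shared by the control and NMU groups. Deviations from group means of same-numbered arrays correlated above 0.1 in all 3 pairs in Cop at 6 h (0.114, 0.142 and 0.435) and Cop at 1 d (0.202, 0.424 and 0.315). They did not in the other 4 strain and time sets, so only in these Cop sets do the numbers look like pairs. The reported fit takes no pairing, and the replicate block was fitted in every set as an alternative. The alternatives were quantile normalization, no filter or a 60th percentile filter, no trend, a replicate block, the compared arrays alone, averaging all probe sets per gene, and each array left out.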

Additional observations from a re-analysis of the deposited data

Results flagged for a closer look

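The change from the first day to 30 d in control glands differed between the strains, by the interaction in limma, for 37 of 54 panel probe sets. The differences below are Cop change minus F344 change in log2 units, for the genes whose probe set of highest mean passed. They were 7.53 for Tnnc2, 7.40 for Myl1, 7.39 for Ckm, 7.22 for Tnni2, 7.08 for Acta1, 7.05 for Pvalb, 7.0 for Atp2a1, 6.78 for Casq1 and 6.49 for Tnnt3. Between 4 and 6 lay Myh2 (5.91), Myot (5.75), Pygm (5.61), Myoz1 (5.61), Eno3 (5.49), Trdn (4.97), Mb (4.63), Ckmt2 (4.61) and Actn2 (4.33). Ryr1 had 3.72, Smpx 3.06, Myl2 2.58, Des 2.37, Lrrc39 2.27, Cacna1s 1.82, Tnnc1 1.71, Myl3 1.51 and Tnni1 1.30. In this family the F344 controls fell and the Cop controls gave differences that were not called, except for Lrrc39, called lower at 30 d in both. Its Cop controls ran from 4.89 to 5.0 at 6 h, from 6.35 to 7.02 at 1 d and from 4.58 to 4.82 at 30 d. The Cop difference thus rests mainly on the 1 d arrays, and the second Lrrc39 probe set was not called in Cop (−0.39, limma adjusted p = 0.274). Myl2, Tnnc1 and Smpx passed the filter through F344 arrays of the first day, Tnnc1 and Smpx also through Cop NMU arrays. The sign of their differences was thus favoured by the filter, and they are given as a description. Without F344 control replicate 1 at 30 d the count was 3.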

How the results depend on the processing

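Under other normalization, gene summary and block settings, the median gene difference of the panel stayed within 1.04 of the reported value in 51 of 51 values. That width, the pooled standard deviation of the muscle score, exceeds several of the medians, and their sign was not part of the check. Of 102 counts of called probe sets, 97 stayed within 1.5 times. The 5 exceptions were NMU in Cop at 6 h with the compared arrays alone (7 called), NMU in F344 at 1 d with the replicate block (1), NMU in Cop at 1 d with the 60th percentile filter (2) and with the replicate block (0), and 30 d against the first day over controls with the compared arrays alone (42). With each array left out in turn, counts ran from 0 to 1 for NMU in F344 at 6 h, 0 to 2 in F344 at 1 d, 0 to 1 in Cop at 1 d, 0 to 4 in F344 at 30 d and 0 to 3 in Cop at 30 d. They ran from 0 to 1 for 1 d against 6 h, 16 to 34 for 30 d against the first day, 0 to 1 for Cop against F344 at 30 d, 0 to 4 for 30 d in Cop controls and 3 to 38 for the strain difference in that change. Medians ran from −2.69 to −0.46 for NMU in F344 at 1 d and from 1.27 to 3.75 for the strain difference in NMU response at 1 d. They took both signs for NMU in F344 at 6 h (−0.51 to 0.50), NMU in Cop at 30 d (−0.19 to 1.24) and 1 d against 6 h over controls (−0.06 to 0.37). Beyond the array left out, the cause of these shifts was not tested.

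With the replicate number as a block, the pairing left no probe set called for NMU in Cop at 1 d (from 1) and moved no other count by over 1.5 times except the F344 count at 1 d. The early strain difference kept 48 calls, the F344 change to 30 d 48 and the strain difference in that change 40. Of 37 single calls in that last comparison, 10 were lost with no filter, where more probe sets were tested. No called probe set reversed its sign under these settings. Signal over background is not known, so changes of dim probe sets may be understated.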
